A study of Danio rerio with 5 samples.

Results

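Mueller glia are the main support cells of the retina, and they were followed here as a minor class among GFP+ cells sorted from zebrafish eyes. A cell was counted as Mueller glia when it held a unique molecular identifier (UMI, 1 counted RNA molecule) of at least 3 of 6 genes, namely rlbp1a, glula, slc1a2b, cahz, gfap and efhd1, and of fewer than 3 of 6 pigment genes, namely pmelb, dct, tyrp1b, tyr, rpe65a and slc45a2. This rule found 527 of 12234 cells. Mueller glia span the retina, take up the glutamate released by neurons and turn it into glutamine, buffer potassium and water, and take part in the handling of retinoids. They are the last cell type to leave the pool of retinal progenitors, with which they share several transcription factors. In zebrafish they can return to division after injury and replace lost neurons.

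The study sorted GFP+ cells from dissected whole eyes of pooled embryos of the line Tg[foxc1b:GFP], in order to sample the anterior segment mesenchyme. Cells were collected at 48, 72, 96, 120 and 144 hours post fertilization (hpf), with libraries A and B at each time point, 10 in all. The study describes A and B as separate biological replicates. No other allele or treatment separates the groups, so that all libraries carry the same transgene and differ in age, and all embryos were raised in medium with 1-phenyl 2-thiourea, which blocks pigment. Libraries 48 hpf A and 72 hpf A were made with V2 chemistry and the other 8 with V3. GFP in this line is driven by regulatory sequence of foxc1b, a gene of mesenchyme, and a sort for it does not aim at the retina. The reporter itself had 0 UMIs in the 12234 cells, and foxc1a and foxc1b had fewer counts per 1000000 UMIs (CPM) in Mueller glia than in the other cells in each of 7 libraries, at 2.08 ± 3.59 and 13.4 ± 18.1 CPM in Mueller glia against 63.5 ± 29.2 and 60.8 ± 33.2 CPM in the other cells (SD, n = 7 libraries).

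Libraries differed in yield, with between 102 and 2759 cells, and in depth. The median UMI count was 1458 in Mueller glia, 7066 in retinal progenitors and 2446.5 in all cells, so that a gene near 1 UMI per cell was seen less often in Mueller glia than in progenitors. Retinal progenitors stand for 1645 cells that held at least 3 of 6 progenitor genes, among them rx1, rx2, ccnd1, hes2.2 and mcm5, and fewer than 3 each of the 6 glial and the 6 pigment genes. Of the barcodes, 92 occurred in more than 1 library. Of these, 1 was held by a Mueller glia cell, and 0 were shared by 2 Mueller glia.

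The cells were chosen by whether they held a UMI of these 6 genes, whose values therefore only describe the class. glula, a glutamine synthetase, had a UMI in 97.3% of Mueller glia, and rlbp1a, the retinaldehyde-binding protein of the visual cycle, in 95.6%. The glutamate transporter slc1a2b was detected in 94.7%, the calcium-binding protein efhd1 in 90.1% and the carbonic anhydrase cahz in 82.7%. The filament gene gfap was detected in 21.3%. For comparison, 2946 corneal and skin epithelial cells were taken, with at least 5 epithelial genes and fewer than 3 each of the 6 glial and 6 pigment genes. In these cells, with a median of 3254 UMIs, the shares were 10.1% for glula and between 0.577 and 1.90% for the other 5. The limit on glial genes holds these shares down by definition, so they are no independent control. All 6 genes were found in 85 Mueller glia, 5 in 315, 4 in 73 and 3 in 54. A further 301 cells held 2 of the 6 genes, and 2 cells with at least 3 were left out by the pigment genes.

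Cells just inside the threshold were less glial than the rest of the class. The fatty acid-binding protein fabp7a, which is not part of the rule, stood at 8200 CPM in the 54 cells with 3 marker genes, at 4043 CPM in 292 cells with 2 marker genes that met the pigment limit, and at 56856 CPM in cells with 4 to 6. The glutamine synthetase glulb stood at 1013, 331 and 11334 CPM in the same 3 sets. hyal6 was detected in 5.56% of cells with 3, in 0.342% of cells with 2 and in 79.7% of cells with 4 to 6 marker genes. At least 3 genes of retinal neurons were found in 19 of the 54 cells with 3 marker genes, in 81 of the 292 with 2 and in 24 of the 473 with 4 to 6. This count left prox1a, rbpms2a, rbpms2b, slc6a9 and neurod1 out of the neuronal lists. The edge of the class was therefore held by few cells, and those cells carried more neuronal and fewer glial transcripts.

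Mueller glia were nearly absent at 48 hpf and present from 72 hpf on. They made up 0.119% of the sorted cells in 48 hpf A (1 of 842 cells, exact 95% binomial interval 0.00301 to 0.660%) and 0 of 916 cells in 48 hpf B, which allows a share of up to 0.328% (3 counts). The 1 cell of 48 hpf A held 24 UMIs of tectb, a tectorin of the inner ear matrix, against 20 UMIs in all other Mueller glia together, so its place in the class rests on its marker genes alone. At 72 hpf the share was 4.99% (3.52 to 6.84%) in A, with 36 of 722 cells, and 1.98% (1.06 to 3.36%) in B, with 13 of 657 cells. At 96 hpf it was 2.30% in A, with 11 of 478 cells, and 1.93% in B, with 28 of 1452 cells. At 120 hpf it was 4.74% in A, with 90 of 1897 cells, and 7.21% in B, with 199 of 2759 cells. At 144 hpf it was 6.14% in A, with 148 of 2409 cells, and 0.980% in B, where 1 of 102 cells was counted (0.0248 to 5.34%). These intervals cover counting error only.

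The share over the 4 late libraries (120 and 144 hpf) was 4.77 ± 2.72%, against 1.89 ± 1.82% over the 6 libraries of 48, 72 and 96 hpf (SD). The difference of 2.88 percentage points did not pass a two-sided exact permutation test over 210 regroupings of libraries (p = 0.0952, n = 4 and 6). Without the small library 144 hpf B the difference was 4.15 percentage points (exact permutation p = 0.0476). Without the libraries of 48 hpf it was 1.97 percentage points (exact permutation p = 0.286). After every cell had been thinned to 1000 UMIs, with shallower cells left out, the shares were 3.42% late and 1.85% early (exact permutation p = 0.343). The groups overlapped, since 72 hpf A stood above both 120 hpf A and 144 hpf B. The share depends on which cells passed the GFP sort as well as on the eye.

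**Figure D1:**
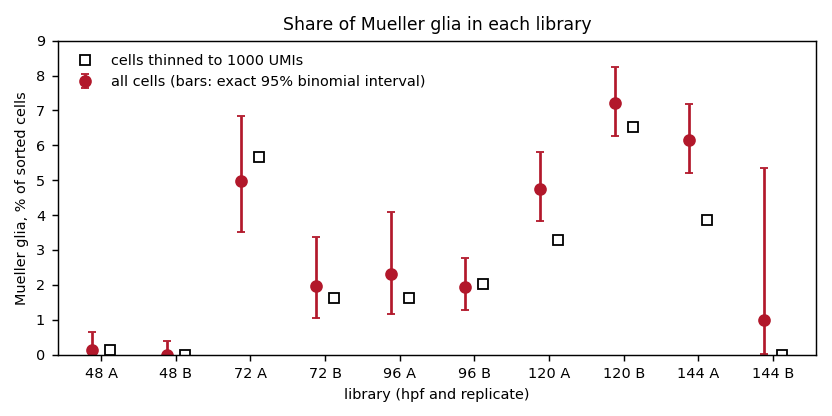
Share of sorted cells counted as Mueller glia in each of the 10 libraries (x axis, hpf and replicate), in percent; red points are all cells with exact 95% binomial intervals, and open squares are the share after thinning each cell to 1000 UMIs. The libraries of 48 hpf lie at or near 0, 120 hpf B is at 7.21%, and libraries A and B of 144 hpf lie at 6.14% and 0.980%.

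The profile of the class was then described in the 7 libraries that held at least 10 Mueller glia (72 hpf A and B, 96 hpf A and B, 120 hpf A and B, 144 hpf A), with 525 Mueller glia in all. UMIs were summed over the cells of a class in each library and expressed as CPM. Since the rule chose cells by their transcripts, a comparison with other cells is a description and carries no test. Of 3146 genes at 50 CPM or more on average in either class, 625 (19.9%) had a higher CPM in Mueller glia than in the other cells in each library and 323 (10.3%) a lower one. The median log2 ratio over all of these genes was 0.57, and it was 0.36 against progenitors. A library with few Mueller glia pushes log2 ratios up, because 0.5 counts were added to each sum, so these counts were taken on the plain CPM. By log2 ratio with the 0.5 counts added, 180 of 2777 genes at 50 CPM or more in Mueller glia (6.48%) stood at least 4-fold above the other cells in each library, and 160 of 2772 (5.77%) at least 4-fold above progenitors. A small Mueller glia pool without a UMI of a gene could also pass this limit, so these genes need not be detected in every pool.

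The genes that stood farthest above the other cells were a mixed group of enzymes, transporters and signalling factors. hyal6, a hyaluronidase by its name, had 468, 241, 315, 733, 1592, 1716 and 972 CPM in Mueller glia of 72 hpf A, 72 hpf B, 96 hpf A, 96 hpf B, 120 hpf A, 120 hpf B and 144 hpf A, against between 0 and 0.590 CPM in the other cells. All 7 Mueller glia pools lay above all 7 pools of other cells for this gene, which had 1412 UMIs in Mueller glia and 12 in all other cells. abi3a, a member of the Abl interactor family, averaged 344 ± 174 CPM in Mueller glia and 0.555 ± 0.451 CPM in the other cells (SD, n = 7). The glucose transporter slc2a1a ranged between 27.6 and 882 CPM in Mueller glia and between 0 and 2.78 CPM in the other cells. mlc1, known in mammals as a membrane protein of astrocytes, had 352 UMIs in Mueller glia of 6 libraries and 15 in the other cells.

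The rest of this leading group can be set out by role. The carbonic anhydrase ca14 averaged 66.0 ± 29.6 CPM in Mueller glia and 0.129 ± 0.182 CPM in the other cells, and the glycogen phosphorylase pygl averaged 312 ± 231 against 1.15 ± 1.48 CPM. slc43a2b, a transporter of large neutral amino acids, averaged 194 ± 168 against 0.391 ± 0.431 CPM, and the metabotropic glutamate receptor grm2b 70.5 ± 74.1 against 0.0764 ± 0.151 CPM. Among secreted factors of the TGF-beta family, inhbab (an activin subunit) averaged 341 ± 215 CPM in Mueller glia and 1.67 ± 1.12 CPM in the other cells, and mstnb (myostatin) 115 ± 111 against 0.400 ± 0.452 CPM. The protease bmp1b averaged 242 ± 110 CPM, the calmodulin-binding protein nrgna 645 ± 425 CPM, the junction protein lmo7b 199 ± 110 CPM, the actin-binding protein xirp1 178 ± 215 CPM and zgc:165604 481 ± 384 CPM in Mueller glia, and each of these 5 stood between 0.488 and 2.17 CPM on average in the other cells. grm2b, mstnb and mlc1 each lacked a UMI in 1 of the 7 Mueller glia pools, the small ones of 96 hpf A or 72 hpf B.

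The label was also compared with marker genes of Mueller glia that the rule did not use. Of 20 such genes 18 had a feature in the files and 14 reached the 50 CPM limit, and 4 of these stood above the other cells in each library (fabp7a, the gap junction gene cx43, and the transcription factors sox2 and her6), while ptgdsb.1 stood below, beside 19.9% above and 10.3% below of all genes. Against progenitors 8 of 14 stood above in each library, where the background was 17.0% above and 15.5% below of 3284 genes. fabp7a had 184910 CPM in Mueller glia of 72 hpf A and between 11770 and 49913 CPM in the other 6 libraries, against between 431 and 5377 CPM in the other cells. cx43 averaged 2186 ± 909 CPM in Mueller glia and 179 ± 87.2 CPM in the other cells. The high value of fabp7a came from the V2 library, and chemistry and library cannot be told apart there.

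Several known markers were thin, missing or near their level in the other cells. vim, a filament gene, averaged 191 ± 132 CPM in Mueller glia and 154 ± 82.1 CPM in the other cells, and was higher in 4 of 7 libraries. It had a UMI in 35.7% of Mueller glia and in 2.80% of progenitors, the deeper class, but did not stand above progenitors in each library. sox9b averaged 6.20 ± 7.0 CPM in Mueller glia against 5.71 ± 3.38 CPM in the other cells. The glutamate transporter slc1a3a averaged 82.4 ± 136 CPM against 82.2 ± 25.1 CPM, with 384 CPM in 120 hpf A and at most 75.8 CPM in the other Mueller glia pools. Among paralogues, rlbp1b, slc1a2a, glulc, aqp4 and apoea had 0 UMIs in Mueller glia, but glulc and aqp4 had 0 UMIs in the other cells of these libraries too and slc1a2a at most 0.184 CPM. Of these duplicated genes the class held UMIs of rlbp1a, slc1a2b and apoeb, of which the first pair chose the cells. fabp7b averaged 7.0 ± 18.5 CPM in Mueller glia against 297 ± 441 CPM in progenitors.

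Of 6 glutamate genes compared outside the rule, 2 (glulb and slc38a4) stood above the other cells in each library and 0 below, beside the 19.9% and 10.3% of all genes. The second glutamine synthetase, glulb, had 10536, 5510, 12399, 3898, 7946, 11422 and 9558 CPM in Mueller glia in the order of libraries from 72 hpf A to 144 hpf A, against between 156 and 514 CPM in the other cells and between 217 and 660 CPM in progenitors. The ranges did not meet. The amino acid transporter slc38a4 had between 18.4 and 3618 CPM in Mueller glia against between 13.8 and 145 CPM in the other cells, and was higher in each library. glud1a, a glutamate dehydrogenase, averaged 29.6 CPM in Mueller glia and 44.4 CPM in the other cells. Of 3 genes for GABA and glycine uptake 0 did; slc6a1b, a GABA transporter, had 458 CPM in 96 hpf B and between 0 and 126 CPM in the other Mueller glia pools.

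Several genes listed for ion and water transport were higher in Mueller glia than in both progenitors and other cells. Of 7 genes compared, ca14, slc4a4a, atp1a1b and cx43 stood above the other cells in each library, and these and aqp1a.1 above progenitors. The background was 19.9% of all genes above the other cells and 17.0% above progenitors. The water channel aqp1a.1 did not stand above the other cells in each library. atp1a1b, a sodium-potassium pump subunit, had 2113, 1649, 3336, 2774, 3185, 1470 and 1024 CPM in Mueller glia from 72 hpf A to 144 hpf A, against between 4.72 and 33.4 CPM in the other cells. slc4a4a, a sodium bicarbonate cotransporter, had 82.7, 80.4, 881, 746, 1486, 365 and 375 CPM in Mueller glia, against between 1.80 and 44.1 CPM in the other cells. The low values of slc4a4a were those of 72 hpf, while atp1a1b showed no such order. The water channel aqp1a.1 stood at 786 ± 743 CPM in Mueller glia and 109 ± 125 CPM in progenitors.

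Of 12 retinoid genes compared, 4 stood above the other cells in each library and 0 below, and against progenitors 5 stood above and 2 below. The shares of all genes were 19.9% and 10.3% against the other cells, and 17.0% and 15.5% against progenitors. cyp26a1, an enzyme that degrades retinoic acid, had 1102, 2534, 1007, 340, 2654, 2200 and 1423 CPM in Mueller glia from 72 hpf A to 144 hpf A, against between 1.53 and 52.0 CPM in progenitors. Its relative cyp26c1 averaged 702 ± 448 CPM in Mueller glia and 50.6 ± 26.4 CPM in progenitors. The binding proteins crabp1a and crabp2b averaged 1534 ± 883 and 167 ± 80.7 CPM in Mueller glia, against 177 ± 35.5 and 16.8 ± 9.83 CPM in progenitors. aldh1a2, which makes retinoic acid, was at 0 in 6 Mueller glia pools and at 3.29 CPM in 144 hpf A, against between 18.8 and 996 CPM in progenitors, and crabp2a, a further binding protein, averaged 42.6 CPM in Mueller glia and 256 CPM in progenitors and was below in each library as well.

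cyp26a1 had a UMI in 221 of 527 Mueller glia. cyp26c1 was found in 24.4% of Mueller glia with cyp26a1 and in 25.8% of those without it, with median depths of 1509 and 1372 UMIs. These pooled shares hide opposite directions, with 13.6% and 32.4% in 120 hpf B and 35.0% and 15.9% in 144 hpf A, and no test was made. The RNA of the rdh10a gene, a retinol dehydrogenase, averaged 306 ± 187 CPM in Mueller glia and 43.8 ± 19.8 CPM in the other cells, and was higher in 6 of 7 libraries.

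Genes of glycolysis and glycogen were higher in Mueller glia over much of the list. Of 18 compared, 12 stood above the other cells in each library (gpia, aldoaa, aldocb, tpi1b, gapdhs, pgam1a, eno1a, pkma, ldha, ldhba, pygmb and slc2a1a) and 0 stood below, and 11 of 18 stood above progenitors. Among all genes 19.9% stood above and 10.3% below the other cells in each library, and 17.0% stood above progenitors. aldocb, an aldolase, had 1029, 201, 1007, 994, 1396, 691 and 616 CPM in Mueller glia from 72 hpf A to 144 hpf A, against between 8.78 and 35.5 CPM in the other cells. The glycolytic enzyme gapdhs averaged 2340 ± 1060 CPM in Mueller glia and 538 ± 163 CPM in the other cells, and the lactate dehydrogenase ldha 136 ± 52.9 against 19.5 ± 5.02 CPM. The median log2 ratio of the list was 2.16 against the other cells and 2.37 against progenitors, beside 0.57 and 0.36 over all genes compared. Genes are not independent replicates, and no test was made of the list.

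**Figure D2:**
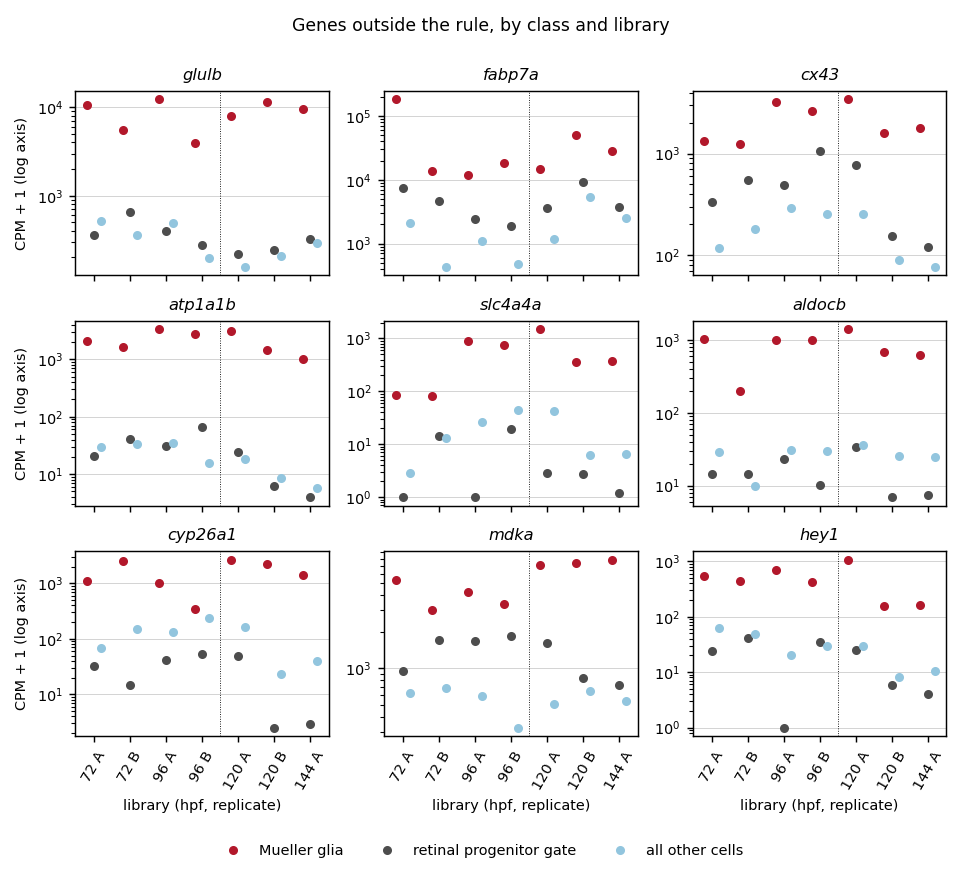
CPM + 1 on a log axis of 9 genes that the rule did not use, in Mueller glia (red), the retinal progenitor gate (dark grey) and all other cells (blue) of the 7 libraries with at least 10 Mueller glia; the dotted line separates 72 and 96 hpf from 120 and 144 hpf. For glulb, atp1a1b, aldocb and hey1 the red points lie above all grey and blue points, whereas the lowest red point of cyp26a1, 340 CPM in 96 hpf B, lies closest to the other cells of its library.

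Mueller glia held transcription factors that are known from the retinal progenitor. Of 17 glial and progenitor factors compared, 9 stood above the other cells in each library (among them sox2, sox3, nfia, rx1, six3b, six6b, pax6a and pax6b) and 0 below. Against progenitors 5 of 16 stood above (sox2, sox3, six3b, six6b and id1). Among all genes 19.9% stood above the other cells and 17.0% above progenitors in each library. sox2 averaged 607 ± 304 CPM in Mueller glia and 191 ± 87.2 CPM in progenitors, and six6b 432 ± 195 against 75.3 ± 25.7 CPM. rx1, which chose the progenitors, averaged 453 ± 223 CPM in Mueller glia and 333 ± 220 CPM in progenitors. nfia, a factor of glial differentiation, averaged 187 ± 135 CPM in Mueller glia and 18.2 ± 28.2 CPM in progenitors, and was higher in 6 of 7 libraries.

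The Notch pathway, in which receptors on one cell are activated by ligands on its neighbour and switch on her and hey genes, was represented unevenly. Of 18 genes compared, notch3, her4.1, her6, her12, hey1 and lfng stood above the other cells in each library and notch2 below. The background was 19.9% of all genes above and 10.3% below. The receptor notch3 averaged 395 ± 238 CPM in Mueller glia and 122 ± 106 CPM in progenitors. The target hey1 had 533, 442, 692, 419, 1070, 158 and 161 CPM in Mueller glia, against between 0 and 40.4 CPM in progenitors, while the target her4.1 averaged 360 ± 295 CPM in Mueller glia and 300 ± 184 CPM in progenitors and was higher in 4 of 7 libraries. The ligand dla averaged 185 ± 222 CPM in Mueller glia and 235 ± 142 CPM in progenitors. The median log2 ratio of 19 Notch genes against progenitors was -0.49, so the list as a whole did not stand above progenitors.

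Genes of proliferation were lower than in progenitors, a class chosen in part by such genes. Of 22 compared with progenitors, 8 stood below in each library (pcna, mcm2, rrm1, cdk1, tyms, stmn1a, hmgb2b and banf1) and 0 above, with a median log2 ratio of -1.96. Among all genes 15.5% stood below progenitors and 17.0% above in each library. ccnd1 and mcm5 had been used to choose the progenitors. pcna, the sliding clamp of DNA replication, had 147, 402, 1007, 432, 122, 393 and 382 CPM in Mueller glia, against between 942 and 2467 CPM in progenitors. pcna was detected in 12.7% of Mueller glia and in 92.2% of progenitors, at the different depths given above. Against the other cells, 1 of 22 proliferation genes stood below in each library (mcm5) and 0 above, beside 10.3% and 19.9% of all genes. The summed list was higher in Mueller glia than in the other cells in 72 hpf B (11221 against 9956 CPM), 96 hpf A (18756 against 6525 CPM) and 96 hpf B (8935 against 4750 CPM), and lower in the other 4 libraries.

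At least 3 of 25 proliferation genes were found in 193 of 527 Mueller glia (36.6%). At least 8 were found in 35 of 527 Mueller glia (6.64%), with 2, 4, 5, 3, 2, 11 and 7 such cells in the libraries from 72 hpf A to 144 hpf A. That was 30.8% of Mueller glia in 72 hpf B and 45.5% in 96 hpf A, of 13 and 11 cells, and between 2.22 and 10.7% in the other 5 libraries. These cells had a median of 6322 UMIs, against 1348 in the remaining Mueller glia. They held glula in 100% and rlbp1a in 94.3% of cells, against 97.2 and 95.7% of the remaining Mueller glia. hyal6 was found in 42.9% of them, against 74.2% of the others, and olig2 in 22.9% against 6.71%. The part of depth and of doublets, which were not removed, was not tested.

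Further lists were mixed, where over all genes compared 19.9% stood above the other cells in each library and 10.3% below. For filaments and junctions, 4 of 7 genes stood above the other cells in each library (cdh2, pard6gb, jam3b and epb41l5). The cadherin cdh2 averaged 594 ± 356 CPM in Mueller glia and 168 ± 88.3 CPM in the other cells. For lipids, fabp7a and the cholesterol exporter abca1a stood above and fabp11a, fabp11b and ptgdsb.1 below, of 9 compared. For metallothionein and redox genes, mt2 and cat stood above and gstm.3 and txn below, of 10 compared. Of 8 genes with a known dorsoventral or nasotemporal pattern in the retina, 6 stood above the other cells in each library (tbx2a, tbx2b, ephb3a, foxg1a, hmx4 and cyp1b1), and they include genes of the dorsal (tbx2b) and of the nasal (foxg1a) retina. Against progenitors 3 of 10 stood above in each library (tbx2a, ephb3a and cyp1b1) and aldh1a2 below, beside 17.0% and 15.5% of all genes.

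Genes of injury and handling were compared as well, since Mueller glia respond to both. Of 13 injury genes, socs3b, the growth factor mdka and six3b stood above the other cells in each library and hbegfa and cebpb below. Among all genes compared 19.9% stood above and 10.3% below, which is near the shares of this list. mdka had 5282, 3016, 4280, 3349, 7039, 7398 and 7819 CPM in Mueller glia, against between 733 and 1841 CPM in progenitors. ascl1a, needed for regeneration in zebrafish, averaged 39.9 ± 45.0 CPM in Mueller glia and 118 ± 66.2 CPM in progenitors. Of 16 immediate early and heat shock genes, fosab, klf6a, hsp70.2 and hsp70l stood above the other cells in each library and klf2a and hspa8 below. These shares too were near the 19.9% and 10.3% of all genes. Against progenitors 6 of 15 stood above in each library (fosab, jun, klf6a, hsp70.1, hsp70.2 and hsp70l) and 1 below (hspa8). Among all genes 17.0% stood above progenitors and 15.5% below. The median log2 ratio of this list against progenitors was 1.85, beside 0.36 over all genes, and no test was made of it. hsp70l averaged 3506 ± 2321 CPM in Mueller glia and 545 ± 445 CPM in the other cells.

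**Figure D3:**
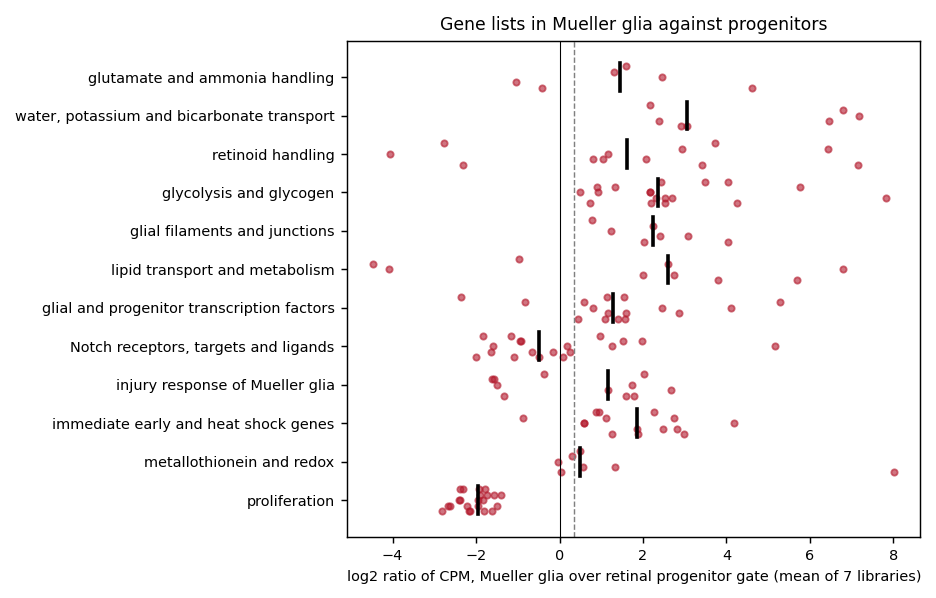
Log2 ratio of CPM in Mueller glia over the retinal progenitor gate, as the mean of 7 libraries, for genes at 50 CPM or more in either class; each point is 1 gene, black bars are list medians, and the dashed line is the median of all genes compared (0.36). Glycolysis and glycogen has a median of 2.37 and proliferation one of -1.96, with no proliferation gene above 0.

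Genes of other cell types were compared as well. Of 14 genes of corneal and skin epithelium all 14, and of 13 genes of annular ligament and mesenchyme all 13, stood below the other cells in each library, beside 10.3% of all genes. The other cells include epithelium and mesenchyme, so this does not measure how clean the class was. Against progenitors, 0 of 10 epithelial and 0 of 5 mesenchymal genes stood below in each library, beside 15.5% of all genes, with median log2 ratios of -0.23 and -0.22. The summed epithelial list ranged between 217 and 11000 CPM in Mueller glia, with the high value in 120 hpf A, against between 21820 and 72526 CPM in the other cells. The 14 mesenchymal genes ranged between 191 and 3462 CPM in Mueller glia against between 6952 and 21999 CPM in the other cells. At least 3 epithelial genes were found in 57 of 527 Mueller glia, of which 19 were in 96 hpf B and 21 in 120 hpf A. Genes of red blood cells summed to at most 8.17 CPM, of macrophages and microglia to at most 9.19 CPM and of lens to at most 180 CPM in Mueller glia, and those of pigment epithelium outside the rule to at most 62.9 CPM.

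Genes of retinal neurons were uneven between libraries. None of the 10 rod and cone, 3 bipolar and 3 amacrine and horizontal genes compared stood above or below the other cells in each library. Of 4 genes listed for ganglion cells, 2 did: the RNA-binding proteins rbpms2a and rbpms2b averaged 437 ± 220 and 952 ± 281 CPM in Mueller glia and 26.0 ± 9.58 and 61.2 ± 26.1 CPM in the other cells, without a UMI of pou4f2 or pou4f3 in Mueller glia. prox1a, listed for amacrine and horizontal cells, averaged 175 ± 135 CPM in Mueller glia and 12 ± 8.42 CPM in the other cells, and was higher in 6 of 7 libraries. Rhodopsin (rho) had 27735 CPM in Mueller glia of 96 hpf B, where 1 cell of 12458 UMIs held 2119 of 2120 UMIs, and 15.6 CPM without that cell. At least 3 genes of retinal neurons were found in 43 of 527 Mueller glia, and in 11 of 28 in 96 hpf B. This count left out prox1a, rbpms2a, rbpms2b, slc6a9 and neurod1, so it does not include the genes just named as high in Mueller glia.

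Change with age was tested within Mueller glia, since the rule did not use the time point. The contrast set 120 and 144 hpf (3 libraries) against 72 and 96 hpf (4 libraries) with edgeR's quasi-likelihood test and Benjamini-Hochberg adjustment over 3332 genes. Each time point had equal weight, so 144 hpf A alone weighed as much as both 120 hpf libraries together. The late and early means in CPM given below are plain means over libraries. The 144 hpf time point had 1 library, which is assumed to vary like the others. With age, 22 genes rose (0.66% of those tested) and 0 fell, with 184 higher (5.52%) and 27 lower (0.81%) at an unadjusted p under 0.05 in edgeR, while DESeq2 called 15 higher and 0 lower. In 14 of the 22 the late libraries lay above the early ones without overlap, as did 145 of all 3332 genes (4.35%), with 114 (3.42%) in the other direction.

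These calls rest on few early cells. Without 96 hpf B (28 Mueller glia) edgeR called 0 genes, with 188 higher and 20 lower at an unadjusted p under 0.05 (DESeq2 was not run without it), without 96 hpf A 4, without 72 hpf A 5, without 120 hpf B 12 and without 72 hpf B 14. Within the pair of libraries that share a batch, 120 hpf A and 96 hpf B, 20 of the 22 were higher in 120 hpf A. Both libraries were part of the fit that chose the 22 genes. The count therefore follows in part from that choice and is no test of batch. Many Mueller glia of 96 hpf B held epithelial or neuronal genes, as given above. Without the Mueller glia that held at least 3 neuronal genes, by the same shortened list, 21 genes were called, 19 of them among the 22. The part of the epithelial genes was not tested.

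The transcription factor cebpd had 1364, 3792 and 2460 CPM in Mueller glia of 120 hpf A, 120 hpf B and 144 hpf A, against 73.5, 0, 504 and 131 CPM in 72 hpf A, 72 hpf B, 96 hpf A and 96 hpf B. The groups did not overlap, and the log2 change was 4.75 ± 0.84 (SE, edgeR, Benjamini-Hochberg adjusted p = 4.39e-05). Here and below, the SE is the size of the log2 change over the square root of the F statistic. That statistic uses a variance moderated across genes, so the SE is not a gene's own spread between libraries. ddit4, an inhibitor of the growth kinase mTORC1, had 89.8, 384 and 369 CPM in the late libraries and 0 in each early one. Against a floor of 3 counts over the early group, 13.3 CPM, its late mean of 281 CPM was at least 21.2-fold higher (edgeR, adjusted p = 4.39e-05). Both genes were spread over many cells, with cebpd in 363 and ddit4 in 143 Mueller glia.

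Carriers of lipids and a water channel rose as well. apoeb, an apolipoprotein, had 8419, 11964 and 20019 CPM in the late libraries, against 891, 684, 3839 and 1060 CPM in the early ones in the same order (log2 change 3.79 ± 0.87, edgeR adjusted p = 0.00609). ptgdsb.2, a lipocalin-type prostaglandin D synthase, had 3062, 7314 and 6502 CPM late, against 340, 0, 1699 and 536 CPM early (adjusted p = 0.0011). Neither gene overlapped between late and early libraries. aqp1a.1 had 1927, 1210 and 1466 CPM late, against 230, 121, 62.9 and 484 CPM early (edgeR adjusted p = 0.0284). These 3 were the genes called among 15 Mueller glia markers tested, and the other 12 did not pass. Of all genes tested, 0.66% rose.

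Several enzymes and a metal-binding protein were also among the 22. dio3a, a deiodinase that inactivates thyroid hormone and is listed in the files under its RefSeq identifier, had 73.5, 173 and 227 CPM late, against 0, 0, 0 and 13.1 CPM early (edgeR log2 change 6.01 ± 1.35, adjusted p = 0.00479). pdk2b, a kinase that restrains pyruvate dehydrogenase, had 163, 164 and 168 CPM late, against 0, 0, 0 and 39.2 CPM early (adjusted p = 0.0106). lpin1, a phosphatidate phosphatase, had 204, 320 and 734 CPM late, against 0, 0, 252 and 78.5 CPM early, so that 1 early library lay within the late range. The P450 enzymes cyp2ad2 and cyp2n13 averaged 230 and 260 CPM late, against 50.5 and 52.8 CPM early. The metal-binding protein mt2 had 4785, 4694 and 8788 CPM late, against 220, 362, 4846 and 549 CPM early, with 96 hpf A inside the late range.

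**Figure D4:**
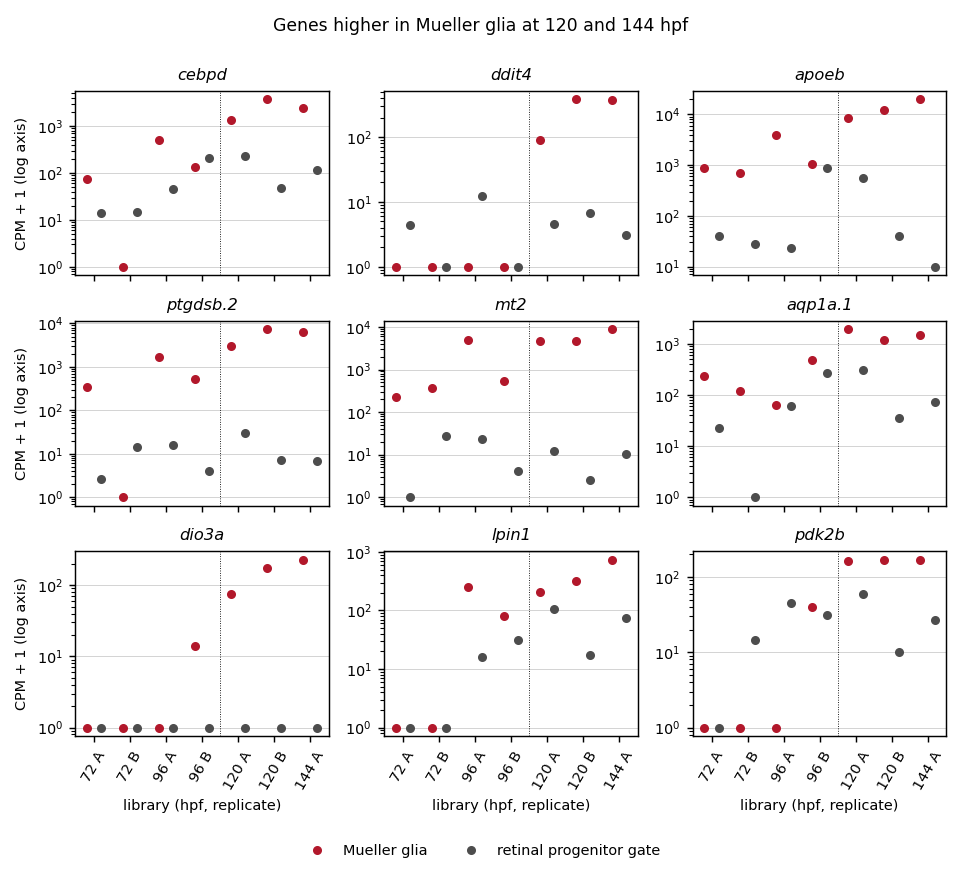
CPM + 1 on a log axis of 9 of the 22 genes that were higher at 120 and 144 hpf, in Mueller glia (red) and the retinal progenitor gate (dark grey) of each library; the dotted line separates 72 and 96 hpf from 120 and 144 hpf, and points at 1 stand for 0 CPM. cebpd, ddit4, apoeb, ptgdsb.2, aqp1a.1, dio3a and pdk2b do not overlap between late and early Mueller glia, while mt2 and lpin1 do.

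The remaining genes that rose were of several kinds. The phosphatase dusp2 had 269, 216 and 280 CPM late, against 0, 0, 62.9 and 209 CPM early, and its call was lost under 13 of 19 alternatives. The translation inhibitor eif4ebp3l averaged 749 CPM late and 118 CPM early, the collagen col15a1b 877 and 215 CPM, the actin-bundling protein espn 636 and 120 CPM, the serpin serpine3 195 and 7.86 CPM, ankrd9 169 and 21.3 CPM, zgc:195173 360 and 45.9 CPM and zgc:110425 186 and 14.6 CPM. olig2, a bHLH transcription factor, had 16.3, 363 and 175 CPM late, against 64.3, 40.2, 0 and 0 CPM early, with overlap, and was found in 41 Mueller glia. Its log2 change of 4.90 was 2.89 without 120 hpf B (edgeR adjusted p = 0.99994), and its call was lost under 16 of 18 alternatives that gave a p. s100t and pvalb8, calcium-binding proteins, do not describe the class: 1 cell of 9100 UMIs in 144 hpf A held 98.8% and 99.0% of their UMIs, and pvalb8 stood at 6581 CPM in that library with the cell and 10.2 CPM without it.

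Most lists held 0 genes that changed with age. By list, 1 of 15 injury genes (cebpd), 1 of 6 redox genes (mt2), 1 of 9 transport genes (aqp1a.1) and 2 of 9 lipid genes (apoeb and ptgdsb.2) rose, beside 0.66% of all genes tested. The lists overlap, since aqp1a.1, apoeb and ptgdsb.2 are also the Mueller glia markers named above. None of 8 glutamate, 4 GABA and glycine, 11 retinoid, 8 filament and junction, 20 Notch, 21 transcription factor, 23 proliferation, 16 immediate early and heat shock, 20 glycolytic and 9 patterning genes passed the edgeR test. The median log2 change was 1.26 for immediate early and heat shock genes, where 16 of 16 were above 0, and -0.22 for glycolysis, beside 0.21 over all genes tested. Scaling by library size alone in place of TMM shifted the median of all genes by -0.28 on the log2 scale, so small list medians carry no direction.

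glulb and fabp7a illustrate genes that did not pass. glulb averaged 9642 ± 1740 CPM in late libraries and 8086 ± 4032 CPM in early ones, and fabp7a 30877 ± 17708 and 57283 ± 85134 CPM. For top2a, a topoisomerase of dividing cells, the values were 0, 21.3 and 16.5 CPM late, against 45.9, 121, 504 and 118 CPM early, which did not overlap, and the log2 change of -2.76 ± 1.0 (SE) had an edgeR adjusted p of 0.33. mki67, another gene of dividing cells, had 89.8, 23.5 and 42.8 CPM late against 27.6, 442, 629 and 209 CPM early.

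Whether these changes were shared with progenitors of the same libraries was tested by an interaction between class and age, with the library as a block (edgeR quasi-likelihood, Benjamini-Hochberg over 4787 genes). In 46 genes (0.961%) the change was higher in Mueller glia than in progenitors and in 6 (0.125%) it was lower, with 407 (8.5%) and 107 (2.24%) at an unadjusted p under 0.05. The count moved with single libraries: it was 115 without 72 hpf A, 24 without 72 hpf B, 20 without 96 hpf A, 7 without 96 hpf B, 122 without 120 hpf A, 20 without 120 hpf B and 34 without 144 hpf A. Of the 22 genes that rose with age, 21 were tested here and 2 passed, ddit4 and col15a1b; apoeb (edgeR adjusted p = 0.244), aqp1a.1 (0.255), ptgdsb.2 (0.395) and cebpd (0.108) were among the others, for which neither a shared nor a separate change was shown. Without the 2 Mueller glia that held the most rho and pvalb8 the count was 21. Scaled by library size alone, 14 genes were called, 14 higher and 0 lower.

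ddit4 passed here as well, with 0, 0, 0, 0, 89.8, 384 and 369 CPM in Mueller glia from 72 hpf A to 144 hpf A, against between 0 and 11.2 CPM in progenitors (edgeR adjusted p = 0.0322). Its call was lost under 11 of 19 alternatives, over which the log2 difference kept its sign and ranged between 4.62 and 10.9. cyp26a1 also changed differently in the 2 classes: its values in Mueller glia are given above, and in progenitors it had 31.7, 13.5, 40.9, 52.0, 47.4, 1.53 and 1.90 CPM (log2 difference of changes 3.87, adjusted p = 0.0302). Of 16 immediate early and heat shock genes tested, 4 passed, hsp70l, hsp70.1, hsp70.2 and dnajb1b, all higher, as were 0.961% of all genes tested. hsp70l had 340, 3580, 4532, 2957, 7888, 2919 and 2325 CPM in Mueller glia, against 10.0, 1198, 855, 474, 226, 27.2 and 40.5 CPM in progenitors (log2 difference 3.19, adjusted p = 0.029), so its level in progenitors was low at 72 hpf A as well as at 120 hpf B and 144 hpf A. sox10, a factor of neural crest and glia, had between 65.4 and 523 CPM in Mueller glia, and in progenitors 188 CPM in 72 hpf B and at most 0.191 CPM elsewhere. Its log2 difference of 4.97 turned to -0.77 without 72 hpf B.

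In the other direction, the Notch ligand dla had 40.8, 29.9 and 75.8 CPM in late and 45.9, 442, 566 and 91.6 CPM in early Mueller glia, against 512, 221 and 292 CPM in late and 179, 242, 119 and 79.5 CPM in early progenitors (log2 difference -3.08, edgeR adjusted p = 0.0179). top2a had a log2 difference of -2.88 (adjusted p = 0.0336), and the gene zgc:110216 one of -3.48 (adjusted p = 0.0179). The call was lost under 8 of 19 alternatives for dla, 10 of 19 for top2a and 6 of 19 for zgc:110216. All 3 calls were lost when scaled by library size alone, and each log2 difference kept its sign throughout. For dla, the mean was lower in late than in early Mueller glia and higher in late than in early progenitors. At least 3 of the 6 progenitor genes were found in 48 of 527 Mueller glia. Among early libraries the share was 5.56% in 72 hpf A, 23.1% in 72 hpf B, 27.3% in 96 hpf A and 14.3% in 96 hpf B. In the late libraries it lay between 5.41 and 10.1%. The part of these cells in the values of dla and top2a was not tested.

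Genes of other cell types and of single cells stood among these calls. The epithelial list summed to 24665 CPM in progenitors of 96 hpf B and 13267 CPM in those of 120 hpf A, and to between 190 and 5327 CPM in the other 5 libraries; the mesenchymal list summed to 10224 CPM in progenitors of 96 hpf B. Of the 52 genes called, 24 had progenitors as the higher class on average, and among the named ones 1 cell held 80.2% of the UMIs of lgals1l1 and 61.8% of those of a claudin, and 1 cell 59.8% of those of the cartilage collagen col11a1a. The collagens col1a1a and col1a2 and the epithelial genes epcam and cldni were also among those called. The part of the other cell types in these calls was not tested.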

How the data were processed

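The authors deposited raw UMI counts (Cell Ranger 6.0; genome GRCz11) and tables of cells that give library, batch and chemistry. GEO lists 1 sample per time point, so the library letters come from those tables, which differ from each other in the batch of 96 hpf A. A joined matrix that the authors subsampled to even depth served as an alternative. The 16283 features were summed to 15413 symbols, all 12234 cells were kept, doublets were not removed, and 0 mitochondrial genes and 0 unused columns of values were found.

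The members and gene lists were chosen with earlier results of these data known. UMIs were summed per class and library with at least 10 Mueller glia and compared with edgeR 4.0.16 (TMM, R 4.3.3) at a false discovery rate of 0.05, without the 12 genes of the rule and eGFP, with DESeq2 1.42.0 as an alternative. A gene that belongs to the progenitor genes and to a list of factors is counted there and not reported here. Log2 ratios had 0.5 counts added. The test was tried on simulated counts. Genes were named as the 15 with the highest mean log2 ratio among those above 0 in each library and at 50 CPM or more, the 10 largest changes over time and the 5 largest of the interaction in each direction, and listed genes; the other genes named were chosen after their values were seen. So were the alternatives without cells with neuronal genes, without 2 single cells, with the covariate for a shared batch, within that batch and without 48 hpf. Scripts used Python 3.11.15 with pandas 2.3.3, scipy 1.17.1, numpy 2.4.6 and matplotlib 3.10.9.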

Additional observations from a re-analysis of the deposited data

Results flagged for a closer look

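In Mueller glia of the 4 early libraries, 1 library stood far from the other 3 in 6 of 26 sets of values examined. The 95% critical value used has a nominal rate of about 1 in 20 for continuous values. Sets of low counts with several zeros do not meet that condition, so the 6 sets are a description and are not set against chance. dio3a was at 13.1 CPM in 96 hpf B and at 0 in the other early libraries, and pdk2b at 39.2 CPM in 96 hpf B and 0 elsewhere. cyp2ad2 was at 189 CPM and apoeb at 3839 CPM in 96 hpf A. fabp7a was at 184910 CPM and id1 at 5824 CPM in 72 hpf A, the V2 library of this group.

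For 52 genes the change between late and early libraries differed between Mueller glia and retinal progenitors by the interaction test given above.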

How the results depend on the processing

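The share of Mueller glia kept its direction under all 15 alternatives, with differences between 1.57 and 4.15 percentage points. It passed the exact permutation test in 1 of them, without 144 hpf B (4.15), and ranged between 2.07 and 4.15 when libraries were left out in turn. The 22 genes that changed with age became 13 with the replicate block and 5 with V3 libraries only. They became 11 with at least 4 of the 6 markers, 1 with at least 20 cells per library and 8 in the joined matrix. With a covariate for the 1 batch that holds both late and early libraries they became 11. That covariate did not adjust for the other shared batches. The genes became 2 with a linear slope over time points and between 0 and 18 when libraries were left out. Under the 20 alternatives of the test with age, those of the 22 that were tested (14 to 22 of them) were again above 0. DESeq2 gave no adjusted p for 7 of the 10 named by size. Among these 10, the call was lost under 16 of 18 alternatives for olig2, 13 of 19 for dusp2 and 10 of 19 for pdk2b. It was lost under 9 of 18 for zgc:110425, 8 of 18 for dio3a, 8 of 17 for s100t and 6 of 19 for cyp2ad2. For lpin1 it was lost under 5 of 20, for cebpd under 3 of 20 and for ddit4 under 2 of 18. The 52 genes of the interaction became 27 with DESeq2, 99 without a filter on low counts, 14 by library size alone, 82 with the replicate block, 115 with V3 libraries only, 19 with at least 20 cells, 15 in the joined matrix, 32 without Mueller glia with neuronal genes, 21 without the 2 cells named, 222 against all other cells and between 7 and 122 when libraries were left out. sox10 turned to -0.97 with at least 20 cells per library and to -0.77 without 72 hpf B, within a range of -0.77 to 6.24 when libraries were left out. The 180 genes at least 4-fold above other cells became 421 with 5 counts added, 272 in the joined matrix and between 178 and 240 when libraries were left out, and the 160 above progenitors became 262 with at least 4 markers. The causes were not tested.

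Replicate letters do not pair the libraries: deviations from the time point means correlated by -0.02, -0.26 and 0.04 over genes between pairs of time points. Batches are shared by 72 hpf B and 96 hpf A (in 1 of the 2 tables that name them), by 96 hpf B and 120 hpf A, and by 120 hpf B and 144 hpf A, so that 1 batch holds both late and early libraries. Early libraries held 11 to 36 Mueller glia and between 15888 and 108863 UMIs of them. A gene with 0 UMIs over the early group could therefore still stand at up to about 13.3 CPM (3 counts).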

Other observations

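The optic stalk and optic nerve head gene pax2a was measured in Mueller glia outside the comparisons above. It had 27.6, 40.2, 62.9, 379, 220, 34.1 and 62.6 CPM in Mueller glia from 72 hpf A to 144 hpf A, against between 0.660 and 7.06 CPM in the other cells, and was found in 46 of 527 Mueller glia (8.73%) and in 16 of 1645 progenitors (0.973%). The cytochrome cyp1b1, a dorsal and ventral retina gene in zebrafish, had 175, 724, 881, 549, 563, 113 and 92.2 CPM in Mueller glia, against between 6.27 and 23.8 CPM in the other cells.

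apoeb was found in 91.9% of Mueller glia with cyp26a1 and in 68.3% of those without, and hyal6 in 86.0 and 62.1%, with median depths of 1509 and 1372 UMIs. These shares pool cells of all libraries and were not tested. hyal6 ran the same way in each of the 7 libraries, while apoeb ran the other way in 72 hpf A, at 50% with and 62.5% without.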
